A study of Mus musculus with 3 samples.

Results

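Elastic fibre genes and Mgp, genes of the matrix of arterial walls, were examined in endothelium sorted from glomeruli of adult mice. The gene list held Mgp, Fbln5, Fbln2, Eln, Ltbp1, Ltbp4, Fbn1, Emilin1, Lox and Loxl2, and a gene was taken where a probe set of the array named it and no other gene. This gave 8 of the 10 listed genes, with 1 probe set each, out of 19938 genes that are named alone by at least 1 probe set. Loxl2 shares its only probe set with another gene, and no probe set used here names Fbn1, so neither was analysed here. The genes were selected on their log2 signals on these same 3 arrays, that is, on their level and on the spread between arrays. The levels of the 8 genes are therefore given as a description, with no p-value, and where a fit over all probe sets places them against a level, that placing rests on the values that chose them and supports nothing.

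All samples form 1 group. The cells came from adult Tie2-GFP transgenic mice of a mixed, mainly CD-1 background and of unknown sex, in which a Tie2 (Tek) promoter drives green fluorescent protein in endothelium. Glomeruli were sieved from collagenase-treated cortex and trypsinised, and the cells were sorted for GFP. The gate takes any cell that holds enough GFP, and no step that parts the endothelium of the capillary tuft from that of attached arterioles is described. There were 3 arrays, replicates 1, 3 and 5, each from 1 kidney that was not pooled, and the design holds no second group. Values are log2 signals, and errors are the SD of the 3 replicates (n = 3). A signal of 100, the number of the study's own filter, is 6.64 on this scale and is called the detection level. The study asked for raw signals of at least 100 in 3 samples, whereas here the deposited log2 values or their mean are set against that number. A gene under this level is therefore not shown to be undetected.

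Elastic fibres give arteries their recoil. They have a core of cross-linked elastin, which is deposited on microfibrils of fibrillin with the help of fibulins and latent TGF-beta binding proteins and is cross-linked by the lysyl oxidase family. Matrix Gla protein, a small secreted protein with vitamin K dependent Gla residues, keeps the arterial wall free of mineral and binds bone morphogenetic proteins. Large arteries and arterioles carry such a matrix, whereas the glomerular capillary rests on a basement membrane.

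The 8 genes fell into those with a high value on a single array and those with almost the same value on every array. Mgp, Fbln5, Fbln2 and Ltbp4 each had their highest value on replicate 3, over 2-fold above both other arrays. Eln, Ltbp1 and Lox had an identical value on all arrays, and Emilin1 differed by 0.56 in log2. The 4 of 8 genes highest on replicate 3 by over 2-fold stand beside 0.996% of all 21789 probe sets that name 1 gene, and the 3 of 8 identical genes beside 54.1%. A range over 2-fold was held by 4 of the 8 genes and 5.73% of all probe sets. None of the 8 genes was highest by over 2-fold on replicate 1 (0.629% of all) or replicate 5 (0.67%), or lowest by over 2-fold on replicate 1 (0.271%) or replicate 3 (1.17%), and Fbln5 was lowest by over 2-fold on replicate 5 (0.307%). Since the genes were listed with these values in view, the counts describe the list and support nothing further.

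The promoters of 3 of the 4 genes that were highest on replicate 3 are shown because these genes moved together. They are the 250 bases before the start that RefSeq (build GRCm38.p6) gives furthest upstream, written 5′ to 3′ in the direction of the gene. Capitals mark the GC box, the site of Sp1-type factors. It is printed as GGGCGG or, where it lies on the other strand, as CCGCCC. The Fbln5 window is chr12:101819120-101819369 on the minus strand, the Fbln2 window chr6:91212514-91212763 on the plus strand and the Ltbp4 window chr7:27337613-27337862 on the minus strand.
Fbln5: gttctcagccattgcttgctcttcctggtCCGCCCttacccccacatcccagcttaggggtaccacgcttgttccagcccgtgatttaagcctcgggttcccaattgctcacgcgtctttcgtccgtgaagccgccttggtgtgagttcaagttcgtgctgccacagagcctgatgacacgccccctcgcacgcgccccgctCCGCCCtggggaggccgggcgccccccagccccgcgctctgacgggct
Fbln2: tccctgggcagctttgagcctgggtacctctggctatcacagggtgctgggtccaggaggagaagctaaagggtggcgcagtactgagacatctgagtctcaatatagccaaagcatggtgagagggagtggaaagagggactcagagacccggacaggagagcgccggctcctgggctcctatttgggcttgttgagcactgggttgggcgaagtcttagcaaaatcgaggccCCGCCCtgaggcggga
Ltbp4: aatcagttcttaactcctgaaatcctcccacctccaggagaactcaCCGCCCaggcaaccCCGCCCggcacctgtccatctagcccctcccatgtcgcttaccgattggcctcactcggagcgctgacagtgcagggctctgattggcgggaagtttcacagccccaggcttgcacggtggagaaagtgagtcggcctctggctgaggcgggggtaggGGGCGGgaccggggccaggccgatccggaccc
The GC box was found 2 times before Fbln5, 1 time before Fbln2 and 3 times before Ltbp4, and 32.7% of 32851 promoter windows of this length hold it on either strand. The windows were rich in G and C, with 65.2%, 58.8% and 64.4% of bases, against a median of 52.4% over all windows. The letters TGGGAA of the RBPJ site, the DNA element of Notch signalling, occurred 1 time before Fbln5 (as TTCCCA) and not before Fbln2 or Ltbp4 (21.6% of all windows). Neither CAGAC, the SMAD-binding element of TGF-beta signalling (42.2% of all windows), nor TATAAA, the TATA box (12.4%), was in any of the 3 windows on either strand. None of these motifs contains another. Such matches describe the letters and are no evidence of binding.

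Mgp varied most between the arrays among the 8 genes. It had 5.37 on replicate 1, 10.18 on replicate 3 and 4.80 on replicate 5, which are signals of 41.4, 1160 and 27.8 on the linear scale. Replicate 3 was thus 28.0-fold above replicate 1 and 41.7-fold above replicate 5, whereas replicates 1 and 5 differed by 0.57 in log2. The mean of 6.78 ± 2.96 describes none of the arrays. On replicate 5 the value lay below 4.85, the 95th percentile of the mean levels of 1035 olfactory receptor probe sets, genes not expected in this tissue.

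Fbln5 encodes fibulin 5, which tethers elastin to microfibrils and binds integrins of vascular cells through an RGD sequence. Its values were 6.21, 8.77 and 5.14 on replicates 1, 3 and 5, with a mean of 6.71 ± 1.87. Replicate 3 was 5.89-fold above replicate 1 and 12.4-fold above replicate 5, and replicate 1 was 2.11-fold above replicate 5. The value on replicate 1 is shared with 15 other probe sets of that array. Its order of the arrays, replicate 3 above replicate 1 above replicate 5, was that of Mgp.

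Fbln2 encodes fibulin 2, a matrix protein of vessel walls and basement membranes. It had 6.02, 7.09 and 5.25 on replicates 1, 3 and 5, with a mean of 6.12 ± 0.92. The same order of arrays was seen, with smaller steps: replicate 3 was 2.10-fold above replicate 1 and 3.57-fold above replicate 5.

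Ltbp4 and Ltbp1 encode latent TGF-beta binding proteins, which hold latent TGF-beta in the matrix, and of which Ltbp4 also aids the deposition of elastin. They behaved differently across the arrays. Ltbp4 had 5.76, 7.55 and 5.88 on replicates 1, 3 and 5 (6.40 ± 1.00), so that replicate 3 was 3.45-fold and 3.19-fold above the others, which differed by 0.11 in log2. Ltbp1 had 7.53 on every array. It was the only one of the 8 genes that reached the detection level on all arrays.

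The core protein and its cross-linking enzyme showed no such movement. Eln, which encodes the elastin precursor tropoelastin, had 6.52 on every array, or 92.1 on the linear scale, just under the detection level. Lox, the copper enzyme that starts the cross-links of elastin and collagen, had 3.67 on every array, below the olfactory receptor level. That value of Lox is not particular to the gene, as 80 to 93 other probe sets hold the same value on an array. Emilin1, whose glycoprotein lies where elastin meets microfibrils and restrains TGF-beta processing, had 5.10 on replicate 1 and 5.66 on replicates 3 and 5 (5.47 ± 0.32). An identical value says that the deposited numbers do not resolve a difference, not that the cells had equal amounts.

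**Figure D1:**
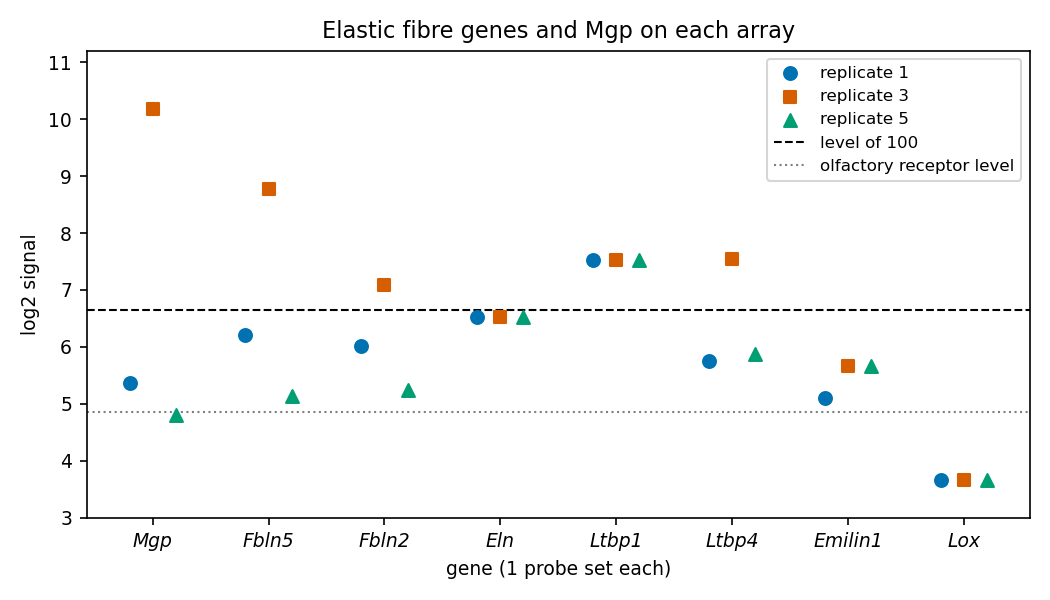
Log2 signal (vertical axis) of the 8 genes (horizontal axis, 1 probe set each) on replicates 1, 3 and 5, with the detection level of 100 (6.64, dashed) and the olfactory receptor level (4.85, dotted). Mgp, Fbln5, Fbln2 and Ltbp4 stand above the dashed line on replicate 3 alone, while Eln, Ltbp1 and Lox keep the same value on all 3 arrays.

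On replicate 3, 5 of the 8 genes reached the detection level, against 1 of 8 on replicate 1 and 1 of 8 on replicate 5. Over all probe sets that name 1 gene, 21.5%, 20.8% and 21.6% did so on replicates 1, 3 and 5, so that no array was brighter as a whole. The mean level of the 8 genes was 5.77, 7.12 and 5.56 on replicates 1, 3 and 5. In the fit by limma across all probe sets, 1 gene was placed above the level of 100 (Ltbp1), 2 below (Emilin1 and Lox) and 5 neither, as a description. Of all probe sets 15.8% were called above, 72.5% below and 11.6% neither, and these calls used the same values as the list. The genes on neither side were Mgp, Fbln5, Fbln2 and Ltbp4, whose arrays lay on both sides of the level, and Eln, which was placed below with limma's default variance prior (3 of 8 below). Without replicate 3, these 4 genes were called below as well, which made 6 below, 1 above and 1 neither, where 73.1% of all probe sets were below without that array. The means of the 4 genes without it were 5.08 for Mgp, 5.68 for Fbln5, 5.64 for Fbln2 and 5.82 for Ltbp4. At the olfactory receptor level of 28.9 (4.85 in log2), 5 were above, 1 below (Lox) and 2 neither (Mgp and Fbln5), where 44.4%, 36.2% and 19.4% of all probe sets were so called. The median level of the 8 genes was 6.46, against 5.04 over all probe sets, and the median range between arrays was 1.17, against 0.0.

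Genes of arterial endothelium were mixed. Of 18, 8 were highest on replicate 3 by over 2-fold, as Mgp and the fibulins were, against 0.996% of all probe sets. By any margin 13 of 18 were highest there, against 14.2% of all probe sets. Lowest there by over 2-fold were 2 (Hey1 and Nrp1), against 1.17%. Of all probe sets 54.1% were identical on the arrays and could be neither highest nor lowest. The list was chosen with earlier results of these data known, so these counts are a description. The gap junction genes Gja5 and Gja4, which mark arterial endothelium, had 7.37, 8.70 and 5.82 and 7.60, 8.90 and 8.11 on replicates 1, 3 and 5. Sox17, a transcription factor of arterial identity, had 8.26, 8.71 and 8.22. Others of this list, picked out after their values were seen, showed wider steps. The Notch ligand gene Jag1 had 6.25, 8.98 and 5.96, and Vegfc, a growth factor gene, had 4.61, 8.37 and 4.61. Cldn5, of endothelial tight junctions, had 5.94, 8.53 and 6.21. The 5 genes that were not highest on replicate 3 included the arterial ephrin gene Efnb2 with 10.73, 10.82 and 11.35. Hey1, a Notch target, had 6.63, 5.22 and 7.06, and Nrp1, a VEGF co-receptor gene, had 11.43, 10.38 and 11.81. Unc5b, a netrin receptor gene, had 5.83, 5.49 and 5.83, and Notch4 was at 6.58 on every array. The mean over the 18 genes was 6.86, 7.88 and 6.95 on replicates 1, 3 and 5. The part of arterial cells in the result was not tested, and in bulk RNA a larger number of such cells and more RNA per cell cannot be told apart.

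Of 10 genes of endothelium in general, 7 had their lowest value on replicate 3, against 12.6% of all probe sets. For 2 of them (Kdr and Ehd3) this was by over 2-fold, against 1.17%. All 10 varied between arrays, whereas 54.1% of all probe sets were identical and could not be lowest on any, which widens the contrast. The mean of the 10 was 10.20, 9.75 and 10.43 on replicates 1, 3 and 5. Tek had 11.00, 10.18 and 10.77, Pecam1 10.32, 10.02 and 10.43, and Cdh5 10.85, 10.40 and 11.01. All 10 were called above 100, against 15.8% of all probe sets, so the labelled cell type carried its markers on every array. Picked out after their values were seen, Ehd3, an endocytic gene of glomerular endothelium, had 10.60, 9.51 and 11.00, and Kdr, a VEGF receptor gene, had 10.83, 9.53 and 11.18. Erg, Eng and Tie1 were not lowest on replicate 3 alone, with 8.49, 8.64 and 8.65, with 8.91, 9.31 and 9.96, and with 7.60, 7.60 and 7.69. Of 6 measured venous genes, 1 was highest on replicate 3 by over 2-fold, against 0.996% of all probe sets. It was Vcam1, added here after its values were seen, with 5.04, 6.75 and 5.03. Nr2f2, Ackr1 and Plvap had 5.77, 3.12 and 5.45 on every array. Ephb4 had 7.32, 6.97 and 7.32, and Vwf 5.27, 5.45 and 5.27.

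Smooth muscle cells lay down most elastin of the vessel wall. All 13 measured genes of smooth muscle, pericytes and mesangium were called below 100, as were 72.5% of all probe sets, and their mean was 4.81, 4.70 and 4.66 on replicates 1, 3 and 5. A single one, Gata3, named after its values were seen, was highest on replicate 3 (4.75, 5.26 and 4.75), against 14.2% of all probe sets. Itga8, an integrin gene of mesangium also named after its values were seen, was highest on replicate 1 by over 2-fold (6.08, 4.94 and 4.75), and its call was lost with the default prior (adjusted p = 0.0818). The defining contractile genes were level, with Acta2 at 5.21 and Myh11 at 4.82 on every array and Tagln at 4.84, 4.60 and 4.87. Ren1 was not analysed here. At the olfactory receptor level 1 of the 13 was above, 3 below and 9 neither, against 44.4%, 36.2% and 19.4% of all probe sets. Of 9 fibroblast genes, 8 were identical on the arrays, among them the collagen genes Col1a1 at 5.89 and Col1a2 at 5.41, and Pdgfra had 4.55, 4.62 and 4.55. The exception among fibroblast genes in level was Pi16, named after its value was seen, at 9.45 on every array. Podocyte, proximal tubule and leukocyte genes (5, 8 and 10 measured) were all called below 100, with means on replicates 1, 3 and 5 of 5.17, 5.07 and 5.12 for podocytes, 4.30, 4.39 and 4.41 for proximal tubule and 4.34, 4.36 and 4.28 for leukocytes. Nphs1 was at 5.47 and Wt1 at 5.24 on every array, and Synpo had 5.05, 5.11 and 5.05. Slc34a1 and Lrp2 were at 5.37 and 4.33 on every array, and Cubn had 3.40, 3.54 and 3.40. Ptprc had 4.94, 4.80 and 4.58, Cd68 5.30, 5.30 and 5.26, and Csf1r 4.24 on every array.

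**Figure D2:**
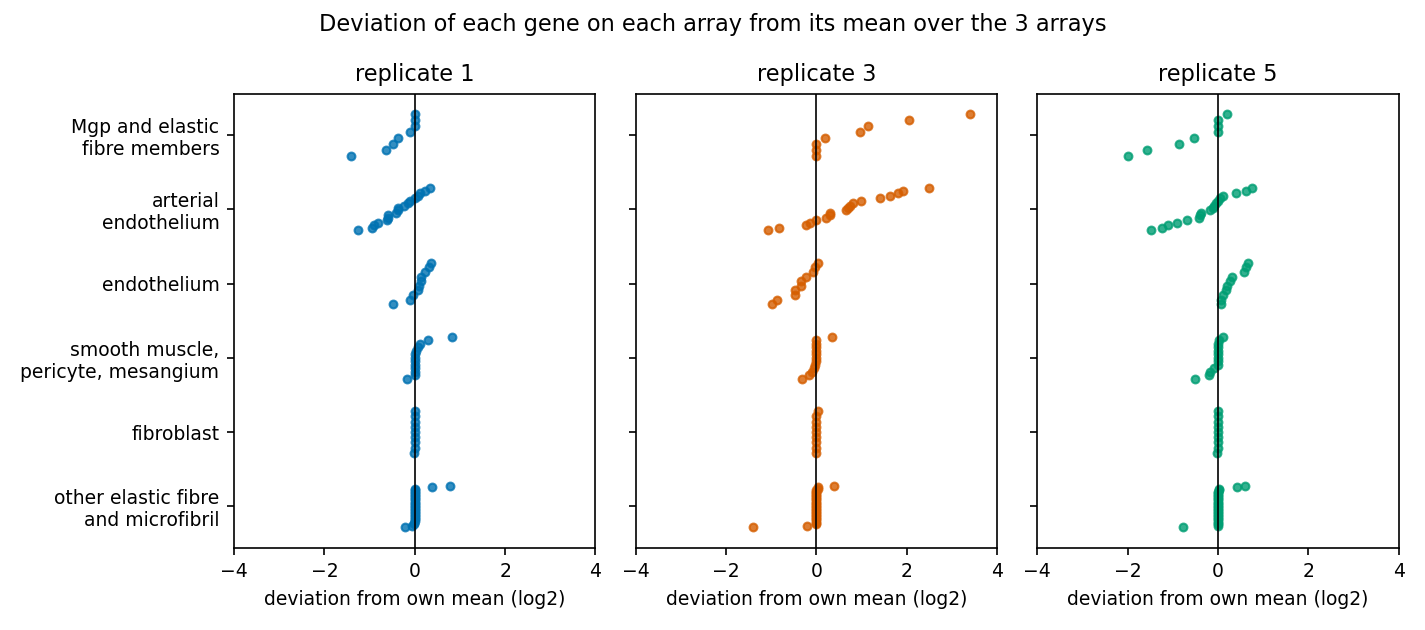
Deviation in log2 of each gene on each array from its own mean over the 3 arrays (horizontal axis, 1 panel per array, points spread vertically within a list by size). On replicate 3, Mgp reaches 3.40 and Fbln5 2.06, most arterial genes lie right of 0 and most endothelial genes left of it, and smooth muscle and fibroblast genes stay near 0.

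The probe sets most like Mgp were found by the Euclidean distance of their 3 log2 values from those of Mgp, among 21788 probe sets of other genes. The nearest were those of Bnip3, a mitophagy gene, at a distance of 1.11, Mpp7, a scaffold gene of cell polarity, at 1.28, Snora33, a small nucleolar RNA gene, at 1.43, Tm6sf1 at 1.49 and Fbln5 at 1.67. Bnip3 had 5.50, 9.08 and 4.86 on replicates 1, 3 and 5, and Mpp7 5.23, 9.28 and 3.90. Beyond these, ranks are given only for genes of the arterial and elastic fibre lists, so genes of other kinds that lie between them are not named. The arterial genes were spread widely. Jag1 ranked 8 at 1.89, Vegfc 10 at 1.97 and Cldn5 14 at 2.25, while Dll4 ranked 542, Hey1 11803, Efnb2 21242 and Nrp1 21676. Of the other elastic fibre genes that moved, Ltbp4 ranked 41 and Fbln2 73. This distance mixes pattern with level. When each probe set was first set to its own mean, a measure chosen after seeing the data, the nearest were Mpp7 at 0.62, Pcolce2 at 0.84, Ptchd1 at 0.88, Bnip3 at 0.98 and Vegfc at 1.17, and Fbln5 ranked 12. Pcolce2, which encodes an enhancer of procollagen processing, had 4.30, 8.55 and 4.35. Both measures rest on 3 arrays and on 1 high value, and they say nothing of shared control.

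**Figure D3:**
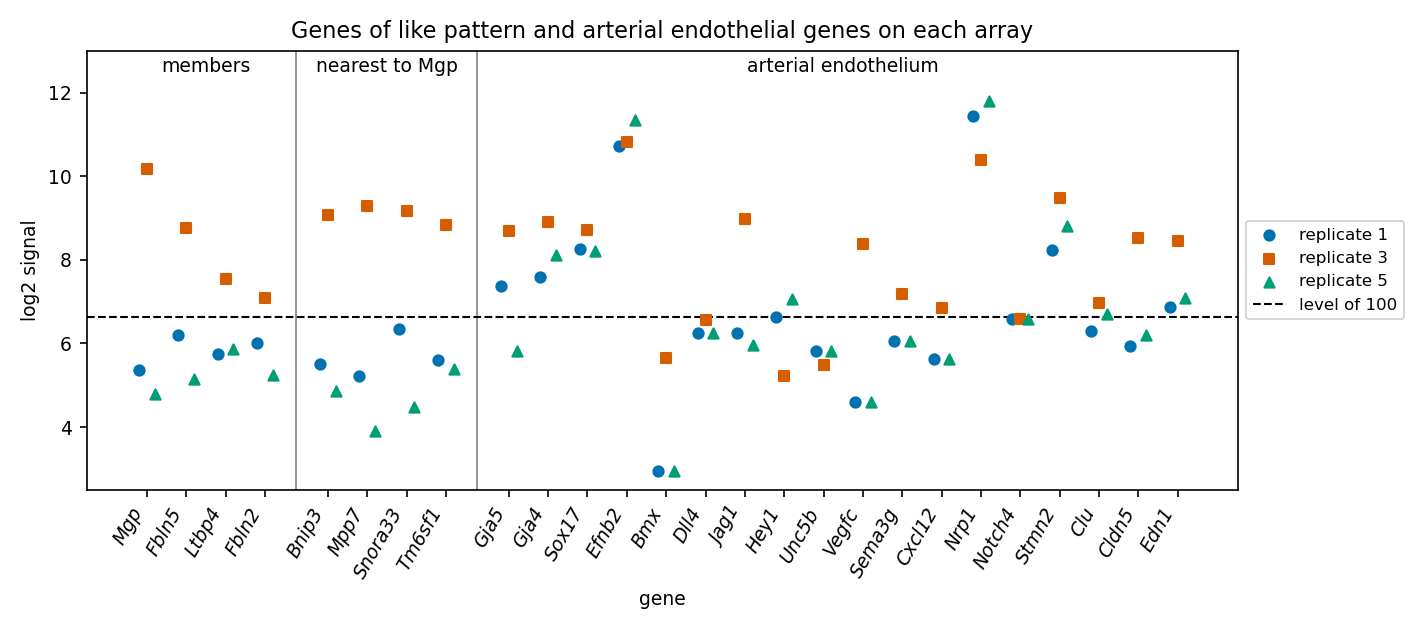
Log2 signal (vertical axis) on replicates 1, 3 and 5 of 4 elastic fibre genes, the 4 other genes nearest to Mgp and the 18 arterial endothelial genes (horizontal axis), with the detection level of 100 dashed. Replicate 3 is the highest array for the first 8 genes, which were chosen by their values, and for 13 of the 18 arterial genes.

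Of 28 other elastic fibre and microfibril genes measured, 3 were called above the level of 100 and 24 below, where 15.8% and 72.5% of all probe sets were so called. Their median was 4.80, against 5.04 over all probe sets. At the olfactory receptor level 10 were above and 9 below, where 44.4% and 36.2% of all probe sets were so called. For genes with the same value on every array the adjusted p is too small, since equal values leave the fit no spread to measure, and their calls are best read as the position of that value. The fibrillin gene Fbn2 was at 4.48, the fibulin genes Fbln1 and Efemp1 at 4.51 and 3.34, the microfibril gene Mfap5 at 4.84 and the lysyl oxidase gene Loxl1 at 4.57, all identical on the arrays and all called below. Mmrn2, which encodes multimerin 2 of the EMILIN family, an endothelial matrix protein, was the highest at 9.24 ± 0.36 (adjusted p = 0.000283), with 9.03 on replicates 1 and 3 and 9.65 on replicate 5. Also above were Mfap3 at 7.31 on every array (adjusted p = 0.00613) and Adamts17, named after its value was seen, at 7.21 on every array (adjusted p = 0.0103). Adamts17 has 5 probe sets, of which only the brightest is given. With the mean over a gene's probe sets, 2 genes of the list were above. Bgn, the proteoglycan gene biglycan, had 6.11, 6.11 and 4.95 and was called below (adjusted p = 0.0403), a call that limma's default variance prior did not make (adjusted p = 0.142). None of the 28 was highest on replicate 3 by over 2-fold on its brightest probe set, as were only 0.996% of all probe sets. Hmcn1, which encodes the giant fibulin relative hemicentin 1, has 77 probe sets that disagree. Its brightest had 8.45, 6.26 and 8.26 on replicates 1, 3 and 5 and was called neither (adjusted p = 0.126), whereas 3 of the 77 were highest by over 2-fold on replicate 1, 8 on replicate 3 and 10 on replicate 5, and 25 were identical.

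Mgp needs vitamin K dependent carboxylation and acts beside other regulators of mineral. The 15 measured genes of Gla formation and calcification control split into 4 above 100, 8 below and 3 neither. Of all probe sets, 15.8%, 72.5% and 11.6% were so called. Acvrl1, the receptor for BMP9 and BMP10 in endothelium, was at 8.61 on every array (adjusted p = 0.000166). Gas6, a vitamin K dependent ligand, had 7.96, 8.58 and 8.53 (8.36 ± 0.35, adjusted p = 0.00106), and Alpl, an alkaline phosphatase that breaks down the mineral inhibitor pyrophosphate, had 8.19, 8.28 and 8.19 (adjusted p = 0.000336). Vkorc1l1, which recycles vitamin K, had 8.17, 7.92 and 7.34 (adjusted p = 0.0064), while its relative Vkorc1 had 6.03, 7.21 and 6.71 and was called neither (adjusted p = 0.983). Ggcx, the carboxylase that makes Gla residues, had 5.46, 5.63 and 5.46 and was called below (adjusted p = 0.00115). Bmp2, a ligand that Mgp binds, had 6.58, 8.49 and 6.23 and was called neither (adjusted p = 0.437). The other BMP ligand gene of the list, Bmp4, had 6.40, 6.73 and 6.73 and was also called neither (adjusted p = 0.888). Bmp2 was the only one of the 15 that was highest on replicate 3 by over 2-fold, against 0.996% of all probe sets.

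Receptors of elastic fibre proteins were led by integrin subunits. Of 12 measured, 3 were called above, 7 below and 2 neither, where 15.8%, 72.5% and 11.6% of all probe sets were so called. Itgb1, the beta 1 subunit, had 10.74, 10.90 and 10.78 (adjusted p = 6.88e-05), Itga9 8.13 on every array (adjusted p = 0.00038), and Ctsa, part of the elastin receptor complex, 7.54, 7.26 and 7.93 (adjusted p = 0.00828). The partners of fibulin 5 on the alpha v axis were lower, with Itgav at 6.07, 5.92 and 5.92 and Itgb3 at 5.33 on every array, both called below, and Itgb5 at 6.63, 5.71 and 6.82, called neither (adjusted p = 0.409). Itga4, an integrin subunit that binds EMILIN1, had 4.61, 4.14 and 3.94 and was called below. None of the 12 was highest on replicate 3 by over 2-fold, as were only 0.996% of all probe sets.

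Latent TGF-beta is the cargo of LTBP1. Of 7 genes for ligands and activators, 2 were called above, 4 below and 1 neither. The shares over all probe sets were 15.8%, 72.5% and 11.6%. Tgfb2 had 7.34, 9.25 and 7.37 (7.99 ± 1.09, adjusted p = 0.0487), and was highest on replicate 3 by over 2-fold as Ltbp4 was. Lrrc32, which encodes GARP, a cell surface anchor of latent TGF-beta, had 7.15, 7.63 and 7.17 (adjusted p = 0.0166). Both calls were lost with limma's default variance prior, with adjusted p = 0.171 for Tgfb2 and 0.0519 for Lrrc32. Tgfb1 had 6.60, 6.60 and 6.80 and was called neither (adjusted p = 0.868).

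Among 11 genes of elastin breakdown and its inhibitors, 2 were called above, 7 below and 2 neither. The shares over all probe sets were 15.8%, 72.5% and 11.6%. Timp3, a matrix-bound inhibitor of metalloproteases, had 10.78, 11.17 and 10.88 (adjusted p = 6.88e-05), and Ctsl, the lysosomal protease cathepsin L, had 9.68, 9.28 and 9.95 (adjusted p = 0.000167). Timp2 lay at the level with 6.65 on every array (adjusted p = 0.979). The elastases of leukocytes and macrophages were low, with Elane at 4.10, Mmp9 at 4.16 and Mmp12 at 3.43 on every array and Ctss at 4.06, 3.75 and 3.69. The medians of these lists were 5.96 for Gla and calcification control, 5.86 for receptors, 6.01 for latent TGF-beta and 4.42 for elastin breakdown, against 5.04 over all probe sets.

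**Figure D4:**
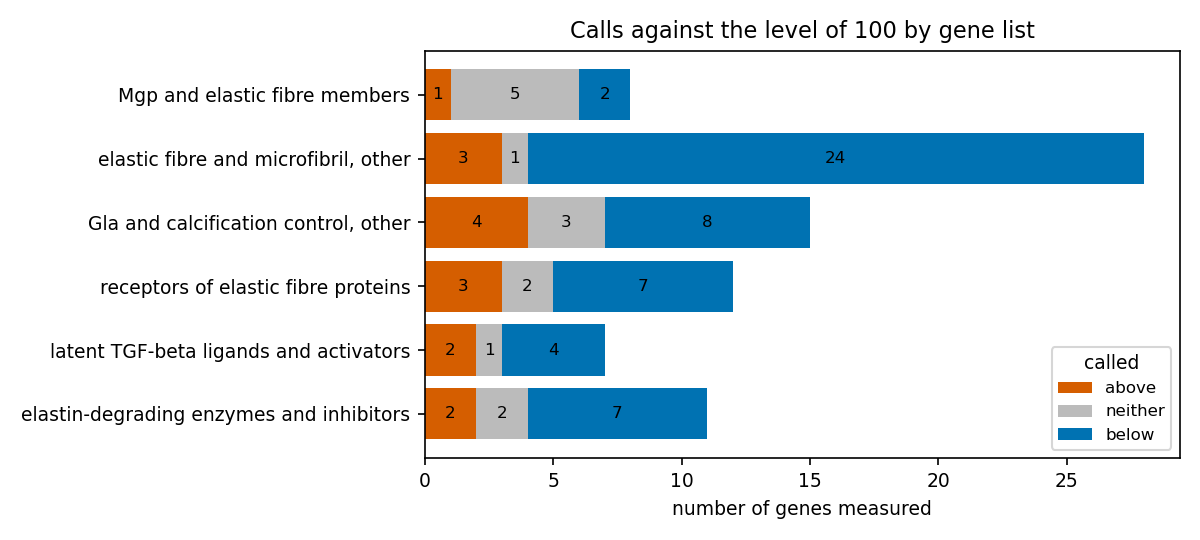
Number of measured genes (horizontal axis) of each list (vertical axis) that limma placed above the signal of 100, below it or on neither side. The 8 genes, shown as a description, have 5 on neither side, and the other elastic fibre and microfibril list has 24 of 28 genes below. Of all probe sets, 11.6% were on neither side and 72.5% below.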

How the data were processed

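RNA of sorted cells was amplified in 1 round and measured on Mouse Gene ST arrays from Affymetrix. Affymetrix Expression Console stands in the submitters' processing notes without a version, while the study's text names RMA. The authors deposited 1 log2 value for each probe set and array, from 1.39 to 14.4, with array medians of 4.85, 4.80 and 4.79. No build of the array annotation is given. RMA summarises probes by medians, which can return exactly equal values between arrays, and its part in the equal values was not tested. The platform annotation gives a single gene for 21789 of 35557 probe sets, more than 1 for 1621 and none for 12147, and only the single-gene ones were used. Of these, 21698 matched RefSeq by Entrez identifier, and no symbol changed. A gene in a list was represented by its brightest probe set.

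An intercept-only fit in limma 3.58.1 (R 4.3.3) set each mean against a signal of 100 in log2 (two-sided), and p-values were adjusted by Benjamini-Hochberg over all 21789 probe sets, with calls at 0.05. The prior for the variance (SD 0.288 with 2.03 degrees of freedom) was estimated on 4406 probe sets whose 3 values all differ, since 54.1% were identical within 1e-09. When tested on simulated data, the fit mostly placed features lying 2-fold or more from the level on the right side, but it also called many that lay at the level. Nearly all of those had equal values on every array. The simulation set these values equal by design, so its rate of false calls does not carry over to the deposited data. Equal values leave the fit no spread to measure, so p-values of such probe sets are too small. The study describes 3 or more independent biological samples for each cell type, but whether every kidney came from a separate animal is not stated. The p-values reflect array-to-array spread, which may be partly technical, and the number of arrays limits the precision. Alternatives were the default prior, the olfactory receptor level, median centring, quantile normalization, the mean over a gene's probe sets and leaving out each array. Figures were drawn with matplotlib 3.10.9. The genes, lists and tests were chosen with earlier results of these data known. Named are the 8 genes, in each pathway list the 3 brightest and the 3 widest in range, the first 3 of each marker list and the 5 probe sets nearest to Mgp, and others are named where they illustrate a list.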

Additional observations from a re-analysis of the deposited data

How the results depend on the processing

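Of 155 values recomputed under another setting, 124 stayed within the spread between arrays or within 1.5 times the count. At the olfactory receptor level more genes were above and fewer below by construction, with 5 above and 1 below among the 8 genes, 10 and 9 among other elastic fibre genes, 9 and 2 for Gla and calcification control, 10 and 2 for receptors, and 5 and 0 for latent TGF-beta. Elastin breakdown had 5 above, and the pathway lists together had 39 above and 19 below. Over all probe sets 44.4% were above and 36.2% below at that level. The number of latent TGF-beta genes above was 0 with limma's default variance prior, 1 after quantile normalization and 1 with the mean over a gene's probe sets. The 7 measured genes of that list have 1 probe set each, so averaging left their values unchanged. Only the variance prior and the adjustment over all genes differed in that setting. Which of these moved the count, and the cause of the other changes, was not tested. Leaving out 1 array at a time gave 1 to 2 latent TGF-beta genes above, with 1 without replicate 1 or replicate 5. It gave 2 to 6 of the 8 genes below, with 6 without replicate 3, where 73.1% of all probe sets were below. Without replicate 3 the range between arrays was 0.57 for Mgp, 1.07 for Fbln5, 0.76 for Fbln2 and 0.11 for Ltbp4. All 4 genes stayed highest on replicate 3 by over 2-fold after centring or quantile normalization. With array medians of 4.85, 4.80 and 4.79 these steps could change little. The genes were also listed with these values in view, so this supports nothing further. No paired analysis was possible because all arrays form 1 group.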
